A study of Mus musculus with 12 samples.

Results

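ErbB ligands, ErbB receptors and the receptor inhibitor Errfi1 were followed across 12 mouse livers. The list named 10 genes: the ligand genes Nrg4, Egf, Tgfa, Hbegf, Ereg and Areg, the receptor genes Egfr, Erbb2 and Erbb3, and Errfi1. Members were matched by gene symbol in the platform annotation, which gave 9 of the 10 a probe set, out of 15780 probe sets with 1 symbol in all. No probe set carried the symbol Areg in that annotation. The values do hold a probe set whose ID contains the Entrez Gene number of Areg, but the annotation does not list it, so it was left unnamed and Areg was not analysed here. Only Nrg4, Egfr and Errfi1 passed the filter on dim signal, a log2 value of at least 4 on at least 3 arrays, and these 3 were tested among 6683 probe sets. Differences were tested with limma, two-sided, with p adjusted over all 6683, and are called where the adjusted p is under 0.05. A member that passes through the groups in which it is high is more likely to differ, so the 3 do not stand for all 9.

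Total RNA came from cryopreserved liver and each of the 4 groups held 3 arrays. Knockout livers with HGF and knockout livers without HGF came from c-MetDhepa mice, in which Cre recombinase removes loxP-flanked c-Met, the gene of the receptor for hepatocyte growth factor (HGF). Cre was driven by the albumin and AFP promoter/enhancer (Alfp-Cre, active from embryonic development) or by the albumin promoter (Alb-Cre, active after birth), and the labels do not say which line each array represents. Control livers with HGF and control livers without HGF came from c-MetloxP/loxP mice, so all 12 mice carried the loxP-flanked alleles. Groups with HGF were sampled 2 h after an intraperitoneal dose of 2 µg recombinant mouse HGF. Whether mice of the groups without HGF had received sodium chloride is not clear from the labels, which give neither age nor sex. Liver cells that do not descend from albumin-expressing cells, such as endothelial and Kupffer cells, keep c-Met in such a knockout. The comparisons ask how these transcripts differ 2 h after HGF and how they differ where hepatocytes lack c-Met.

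ErbB receptors are tyrosine kinases of the epidermal growth factor receptor family. They pair on binding a ligand and then signal through the Ras and ERK cascade, PI3 kinase and STAT factors. Most ligands are made as membrane precursors that a protease such as Adam17 cuts free. Errfi1, also called Mig-6, binds the active kinase domain of the receptors, blocks it and favours receptor removal, and its gene is switched on by growth factors, stress and glucocorticoids. In liver, EGFR is abundant on hepatocytes and takes part in regeneration, and Met and EGFR feed into the same cascades.

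The arrays were alike in technical measures, while some knockout arrays went against the order of the controls. On each array 37.91% to 38.42% of probe sets lay at a log2 value of 4 or more, the log2 difference between the 3′ and 5′ Gapdh control probe sets was -0.197 to -0.061, and Pearson's r between arrays was 0.914 to 0.992. An HGF response index over all tested probe sets was set to 0 at the mean of the controls without HGF and to 1 at the mean of the controls with HGF. Replicates 1 to 3 had indices of 0.32, 0.02 and 0.94 in knockouts with HGF and of 0.12, 0.98 and 0.04 in knockouts without HGF. Control arrays lay at 0.88 to 1.06 with HGF and at -0.06 to 0.07 without, which the definition favours. Both knockout arrays numbered 2 thus lay opposite to the order of the controls, which livers lacking c-Met need not follow. Differences that use knockout arrays are also given without both arrays numbered 2 for the tested members, Erbb3 and the gene lists. The knockouts that stay have indices of 0.32 and 0.94 with HGF and 0.12 and 0.04 without. Leaving out arrays by this index favours a smaller spread and, in knockouts, an HGF effect like that in controls. Each such result below is therefore a description. The Met probe set had log2 values of 6.29 to 7.40 in knockouts with HGF, 6.68 to 7.18 in knockouts without HGF, 6.59 to 7.02 in controls with HGF and 6.62 to 6.84 in controls without HGF. Which part of the transcript its probes cover is not known here, so this does not check the genotype. The array numbers run from 1 to 6 for controls and from 7 to 12 for knockouts, so genotype and array order cannot be told apart.

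Promoter sequences are shown for the 3 tested members, because the results turn on these genes. They are RefSeq sequences of build GRCm38.p6, written 5′ to 3′ on the strand of the gene, and run from 250 bases before to 50 bases after the annotated start. Capitals mark matches to any motif searched, which are named after the sequences. The Nrg4 promoter lies at chr9:55283576-55283875 on the minus strand, the second of 2 annotated Errfi1 promoters at chr4:150854820-150855119 on the plus strand, and the Egfr promoter at chr11:16751953-16752252 on the plus strand.
Nrg4: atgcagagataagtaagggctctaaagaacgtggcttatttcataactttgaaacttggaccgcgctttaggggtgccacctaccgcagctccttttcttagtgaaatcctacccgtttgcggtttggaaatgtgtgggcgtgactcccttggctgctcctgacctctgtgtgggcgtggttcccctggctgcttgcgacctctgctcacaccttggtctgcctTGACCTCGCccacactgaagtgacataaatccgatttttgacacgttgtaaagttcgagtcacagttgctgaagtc
Errfi1: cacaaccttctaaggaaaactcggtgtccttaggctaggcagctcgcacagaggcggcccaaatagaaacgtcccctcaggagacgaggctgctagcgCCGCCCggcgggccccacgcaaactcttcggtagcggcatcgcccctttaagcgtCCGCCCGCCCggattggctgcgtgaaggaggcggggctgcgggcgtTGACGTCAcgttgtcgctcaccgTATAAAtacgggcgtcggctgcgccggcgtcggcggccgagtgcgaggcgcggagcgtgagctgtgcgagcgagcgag
Egfr: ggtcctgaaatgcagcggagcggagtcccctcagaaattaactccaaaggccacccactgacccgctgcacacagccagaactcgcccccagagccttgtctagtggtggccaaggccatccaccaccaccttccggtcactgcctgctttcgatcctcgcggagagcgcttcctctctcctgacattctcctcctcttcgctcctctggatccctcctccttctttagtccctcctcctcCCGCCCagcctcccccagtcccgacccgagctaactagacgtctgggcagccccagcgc
Both strands were searched for the AP-1 site TGANTCA, the cyclic AMP response element TGACGTCA and its short form TGACG, the E-box CACGTG and the STAT site TTCNNNGAA. They were also searched for the antioxidant response element TGACNNNGC, the GC box GGGCGG, the TATA box TATAAA, and the CArG box and NF-kappaB site by name. Errfi1 held the element TGACGTCA at positions -51 to -44 from the start, which overlaps the short form on both strands, and TATAAA at -28 to -23. TGACGTCA occurs in 1.79% of the 32851 promoters of the same length in the table, TGACG in 20.8% and TATAAA in 13.6%. Errfi1 also held 3 GC boxes, a pair of which share bases, and Egfr held 1, against 35.7% of promoters with at least 1. Nrg4 held an antioxidant response element, TGACCTCGC, at -26 to -18, as do 12.4% of promoters in some form. No match to TGANTCA (7.81% of promoters), CACGTG (7.15%), TTCNNNGAA (8.30%), the CArG box (1.63%) or the NF-kappaB site (4.51%) lay in the 3 windows. The first annotated Errfi1 promoter held no match to any of the motifs.

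Among the ligands, Nrg4 was the member with the widest differences: its transcript was near the floor of the array in all controls without HGF and well above it on every other array. Nrg4 encodes neuregulin 4, a ligand of ErbB4 that in mice is secreted by brown fat and acts on hepatocytes. On the log2(intensity + 1) scale, Nrg4 (Entrez Gene 83961) was at 5.09, 5.41 and 6.17 in knockouts with HGF and 4.80, 5.51 and 5.90 in knockouts without HGF. It was at 6.95, 5.87 and 5.13 in controls with HGF and at 2.80, 2.97 and 2.85 in controls without HGF. The 9 arrays of the first 3 groups overlapped each other, and none of them overlapped the controls without HGF. Group means were 5.55 ± 0.55 in knockouts with HGF, 5.40 ± 0.56 in knockouts without HGF, 5.99 ± 0.92 in controls with HGF and 2.87 ± 0.09 in controls without HGF (SD, n = 3 each). In ordinary intensity units this was 33.0 to 70.8 in knockouts with HGF, 26.8 to 58.8 in knockouts without HGF, 34.0 to 123.0 in controls with HGF and 5.95 to 6.85 in controls without HGF.

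**Figure D1:**
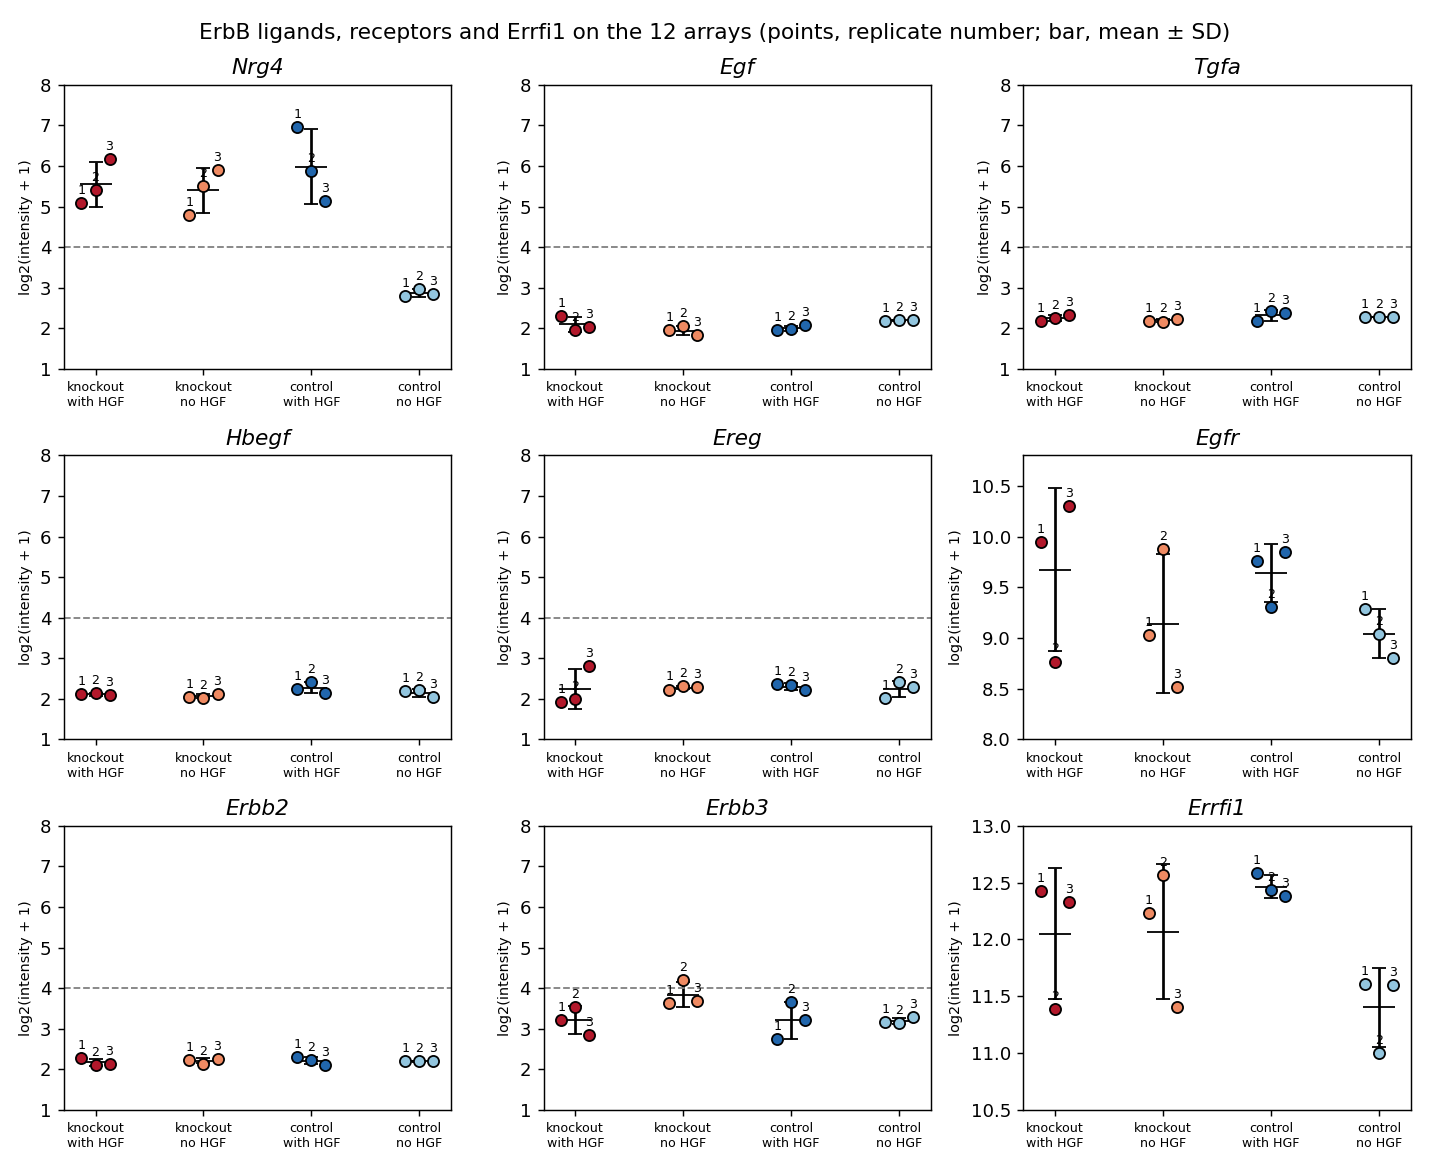
Log2(intensity + 1) of the 9 members with a probe set on each array, by group; points carry replicate numbers, bars show the mean and SD of 3 arrays, and the dashed line is the filter value of 4. Nrg4 lies at 2.80 to 2.97 in controls without HGF and at 4.80 to 6.95 elsewhere, Egf, Tgfa, Hbegf, Ereg and Erbb2 stay under 4 on all arrays, and the panels of Egfr and Errfi1 have axes of their own.

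Nrg4 rose with HGF in control livers. The difference was 3.11 on the log2 scale (SE 0.44, 95% interval 2.13 to 4.10, limma adjusted p = 0.0338). The arrays of the 2 groups did not overlap, an order that 14.1% of tested probe sets shared. Of the 3 tested members only Nrg4 was called in this contrast, in which limma called 27 probe sets, 0.404% of those tested, with 20 higher (0.299%) and 7 lower (0.105%). The call rested on every control array: the adjusted p was 0.0674 to 0.154 when any single control array was left out, at differences of 2.63 to 3.54. It was 0.115 without the 2 arrays whose number in the labels carries an added letter, control replicate 2 with HGF and knockout replicate 3 without HGF. It was 0.152 with same-numbered arrays of a genotype fitted as pairs, a pairing that is not settled. It was 0.0159 to 0.0457 when any single knockout array was left out. Nrg4 passed the filter only through arrays on which it was high, and with no filter the limma adjusted p was 0.0483. Values near 3 on this scale lie close to background, so no fold is given against the controls without HGF, and the difference was 1.84 with a pseudocount of 16.

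In knockout livers Nrg4 did not differ past the threshold between the groups with and without HGF. The difference was 0.15 (SE 0.44, 95% interval -0.83 to 1.14, limma adjusted p = 1.00), with overlapping groups. Limma called 0 probe sets in this contrast (0% of those tested), with 127 at an unadjusted p under 0.05. Without both knockout arrays numbered 2, the difference was 0.28. The interaction, that is the HGF effect in knockouts minus that in controls, was -2.96 for Nrg4 (SE 0.63, 95% interval -4.35 to -1.57, unadjusted p = 0.000758, limma adjusted p = 0.241). In this contrast limma called 0 probe sets (0%), and 724 had an unadjusted p under 0.05. With a pseudocount of 16 it was -1.73, and without both knockout arrays numbered 2 it was -2.83 (limma adjusted p = 0.178). With array weights, which give less weight to arrays far from their group, its limma adjusted p was 0.0398, at -2.60. Limma then called 104 of the 6683 tested probe sets.

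Without HGF, Nrg4 was higher on all 3 knockout arrays than on any control array, by at least 1.82 on the log2 scale. The difference of the means was 2.53 (SE 0.44, 95% interval 1.55 to 3.51) and did not pass the threshold (limma adjusted p = 0.0848). It was 1.37 with a pseudocount of 16 (limma adjusted p = 0.173). Limma called 4 probe sets in this contrast (0.0599%), 2 higher (0.0299%) and 2 lower (0.0299%), and in 6.61% of tested probe sets the knockout arrays all lay above the controls. The adjusted p of Nrg4 was 0.0493 without both knockout arrays numbered 2, 0.0489 without control replicate 1 with HGF and 0.0199 with array weights. In these 3 fits limma called 180, 8 and 150 of the 6683 tested probe sets. In the first, the arrays left out were picked on an index that includes Nrg4. Without any other single array the adjusted p of Nrg4 was 0.0891 to 0.335. With HGF, the knockout and control groups overlapped, at a difference of -0.43 (SE 0.44, 95% interval -1.42 to 0.55, limma adjusted p = 0.745), and 1 probe set was called (0.0150%). Averaged over both conditions, knockouts were higher by 1.05 (SE 0.31, limma adjusted p = 0.315), where 1 probe set was called (0.0150%), and by 0.51 with a pseudocount of 16. Without both knockout arrays numbered 2, the knockout effect on Nrg4 was -0.36 with HGF and 1.06 averaged (limma adjusted p = 0.879 and 0.229). The HGF effect in controls, the knockout effect without HGF and the interaction all use the same 3 controls without HGF, so these differences are not separate evidence.

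The pattern of Nrg4, with the 3 controls without HGF apart from all 9 other arrays, was then looked for across the array, a step chosen after its values were seen. In 110 tested probe sets (1.65%) all 9 other arrays lay above the controls without HGF, and in 192 (2.87%) all 9 lay below. Nrg4 had the largest upward gap of the 6683, at 1.82 between the highest control without HGF and the lowest other array. The metallothionein gene Mt1 came next at 1.18, followed by Rgs16 (0.99), Csrnp1 (0.90), Phlda1 (0.88) and Plk3 (0.87). With a pseudocount of 16 the gap of Nrg4 was 0.91 and ranked second after Mt1. Nrg4 passed the filter only through the 9 arrays on which it was high, which favours a large gap among tested probe sets. Egfr and Errfi1 did not show this pattern.

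**Figure D2:**
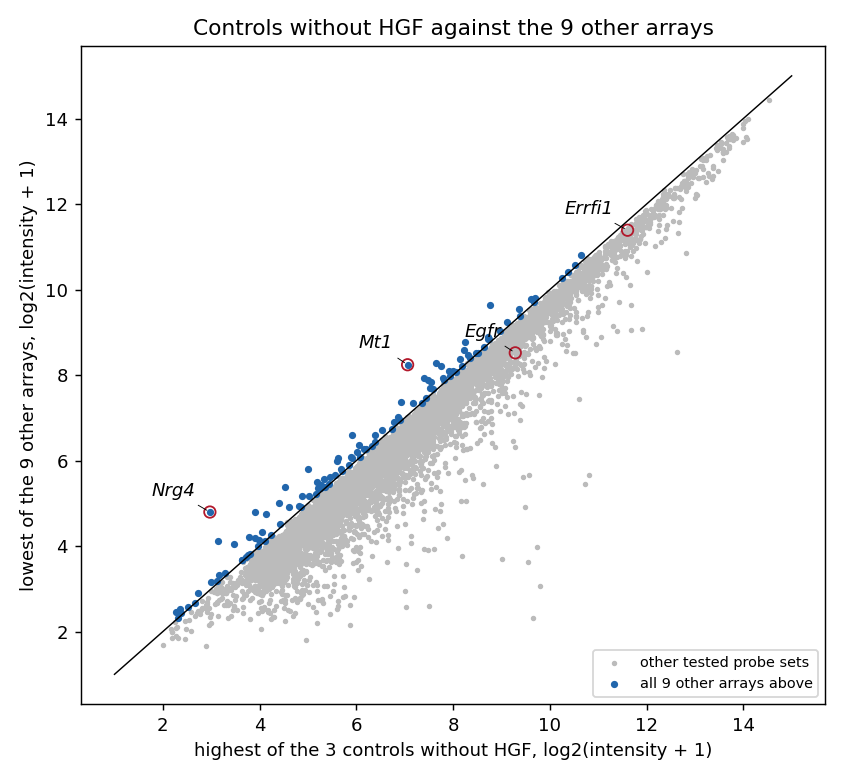
For each of the 6683 tested probe sets, the lowest log2(intensity + 1) of the 9 arrays other than controls without HGF (vertical) against the highest of the 3 controls without HGF (horizontal); points above the line, in blue, are the 110 probe sets whose 9 other arrays all lie higher. Nrg4 lies farthest above the line, at 4.80 against 2.97, while Egfr and Errfi1 lie below it.

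Nrg4 was high on all 6 knockout arrays, while neutrophil markers were low on 3 of them and higher on the other 3. Each marker sum is the log2 of the summed intensities of its genes, so the brightest genes weigh most. Of the 11 neutrophil genes with a probe set, only 3 passed the filter, and Mpo, Elane, Cxcr2 and Csf3r did not. The neutrophil sum was 5.71 to 10.33 in knockouts with HGF and 6.08 to 10.34 in knockouts without HGF. It was 9.65 to 11.50 in controls with HGF and 5.94 to 6.89 in controls without HGF. On knockout replicate 2 with HGF and knockout replicates 1 and 3 without HGF, the neutrophil sum was 5.71, 6.29 and 6.08, within or below the range of the controls without HGF, while Nrg4 stood at 5.41, 4.80 and 5.90. On knockout replicates 1 and 3 with HGF and replicate 2 without HGF, the sum was 8.23, 10.33 and 10.34, and Nrg4 stood at 5.09, 6.17 and 5.51. The 7 hepatocyte markers with a probe set, all above the filter, summed to 16.41 to 16.51 over all 12 arrays. Kupffer cell markers summed to 10.71 to 11.49 over the 6 knockout arrays, 10.78 to 11.30 in controls with HGF and 11.24 to 11.80 in controls without HGF. Endothelial markers summed to 10.72 to 11.11 over the knockout arrays, 10.52 to 10.57 in controls with HGF and 10.89 to 10.97 in controls without HGF. The part of these cells in the Nrg4 values was not tested. All 6 cholangiocyte markers and all 6 lymphocyte markers with a probe set stayed below the filter. In whole liver, fewer cells of a type and less RNA per cell cannot be told apart.

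The genes most like Nrg4 over the 12 arrays were 1810055G02Rik (Pearson's r = 0.914), Etfdh (0.913), Tmem128 (0.895), Csrp2 (0.895) and Tmem87b (0.890). Etfdh encodes a mitochondrial electron transfer enzyme and Csrp2 a LIM domain protein. These correlations describe arrays that share the 4 groups. Over the same arrays, r was 0.621 between Nrg4 and Errfi1 and 0.387 between Nrg4 and Egfr.

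The other 4 ligands with a probe set gave no signal above the filter in any group. Egf encodes the founding ligand of EGFR, Tgfa encodes transforming growth factor alpha, Hbegf the heparin-binding ligand and Ereg epiregulin. Egf lay at 1.96 to 2.29 in knockouts with HGF, 1.83 to 2.05 in knockouts without HGF, 1.95 to 2.08 in controls with HGF and 2.19 to 2.21 in controls without HGF. Both controls with HGF and knockouts without HGF lay below the controls without HGF, by means of -0.20 and -0.26, orders that 23.7% and 12.1% of tested probe sets shared. Tgfa stayed at 2.17 to 2.42, and Hbegf at 2.02 to 2.42, over all 12 arrays. Ereg stayed at 1.93 to 2.80, the highest being knockout replicate 3 with HGF. Over these ligands and Erbb2, the 4 group means of a gene lay within 0.26 of each other on the log2 scale. No test was run on them, and a change in transcripts this close to background would not be visible in these values.

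Egfr, the receptor for Egf, Tgfa, Hbegf and Ereg, was high and low within both knockout groups. It stood at 9.95, 8.77 and 10.30 in knockouts with HGF (replicates 1 to 3) and at 9.03, 9.88 and 8.52 in knockouts without HGF. It stood at 9.76, 9.31 and 9.85 in controls with HGF and at 9.29, 9.04 and 8.80 in controls without HGF. In controls the arrays with HGF all lay above those without, by as little as 0.02, while the knockout groups overlapped over most of their range. Group means were 9.67 ± 0.80 in knockouts with HGF, 9.14 ± 0.69 in knockouts without HGF, 9.64 ± 0.29 in controls with HGF and 9.04 ± 0.24 in controls without HGF (SD, n = 3 each).

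No Egfr difference passed the threshold in any of the 6 contrasts with all arrays. The HGF effect was 0.53 in knockouts (SE 0.41, 95% interval -0.38 to 1.44, limma adjusted p = 1.00) and 0.60 in controls (SE 0.41, 95% interval -0.32 to 1.51, limma adjusted p = 0.448). In 14.1% of tested probe sets the controls with HGF lay above those without, so the separation of Egfr was common. The interaction was -0.06 (SE 0.58, 95% interval -1.36 to 1.23), an interval that spans ratios of 0.39 to 2.34. The knockout effect was 0.03 with HGF, 0.10 without HGF and 0.07 averaged over both (SE 0.41, 0.41 and 0.29). Without both knockout arrays numbered 2, Egfr rose by 1.35 with HGF in knockouts (limma adjusted p = 0.0269) and the interaction was 0.76 (limma adjusted p = 0.376). For HGF in knockouts that fit called 278 of the 6683 tested probe sets, against 0 with all arrays. The knockout effect on Egfr was then 0.49 with HGF, -0.27 without HGF and 0.11 averaged. Those arrays were left out because they lay against the order of the controls on an index that includes Egfr, which favours a larger effect.

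Erbb3 was low, and Erbb2 gave no signal. ErbB2 has no known ligand and acts as a partner of the others, and ErbB3 has little kinase activity of its own and binds neuregulins. Erbb2 lay at 2.10 to 2.29 on all 12 arrays. Erbb3 reached a log2 value of 4 on 1 array and was not tested. It stood at 3.22, 3.54 and 2.85 in knockouts with HGF, at 3.64, 4.19 and 3.68 in knockouts without HGF, at 2.75, 3.65 and 3.21 in controls with HGF and at 3.18, 3.14 and 3.28 in controls without HGF. All 3 knockouts without HGF lay above the knockouts with HGF and above the controls without HGF, by at least 0.10 and 0.36. Without both knockout arrays numbered 2 these gaps were 0.42 and 0.36. Among tested probe sets, all knockouts with HGF lay below those without in 1.24%, and knockouts without HGF above controls without HGF in 6.61%. The log2 of the summed intensities of 10 stellate cell markers had the same order, with 6 of them above the filter and Des, Pdgfrb, Col1a1 and Col1a2 not. This sum was 10.83 to 11.02 in knockouts with HGF and 11.08 to 11.36 in knockouts without HGF. It was 10.70 to 10.86 in controls with HGF and 10.63 to 10.87 in controls without HGF. Its part in the Erbb3 values was not tested.

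Errfi1, the feedback inhibitor, was about 2-fold higher with HGF in controls and split within both knockout groups. It stood at 12.43, 11.39 and 12.33 in knockouts with HGF and 12.23, 12.57 and 11.41 in knockouts without HGF. It stood at 12.58, 12.44 and 12.38 in controls with HGF and at 11.61, 11.002 and 11.60 in controls without HGF. On 4 of the 6 knockout arrays Errfi1 was above every control without HGF, and knockout replicate 2 with HGF and replicate 3 without HGF lay among those controls. Group means were 12.05 ± 0.58 in knockouts with HGF, 12.07 ± 0.60 in knockouts without HGF, 12.47 ± 0.10 in controls with HGF and 11.40 ± 0.35 in controls without HGF (SD, n = 3 each).

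The Errfi1 difference in controls was 1.06 (SE 0.33, 95% interval 0.32 to 1.81, 2.09-fold) and did not pass over all tested probe sets (limma adjusted p = 0.133). The groups did not overlap, as in 14.1% of tested probe sets. The fit shares its spread with the knockout arrays, and the limma adjusted p was 0.0131 with the 2 control groups alone, 0.0252 without both knockout arrays numbered 2 and 0.0175 with array weights. It was 0.0806 to 0.345 when any single array was left out, 0.218 without the arrays with an added letter and 0.190 with no filter. The arrays numbered 2 were picked on an index that includes Errfi1. In knockouts the HGF effect was -0.02 (SE 0.33, 95% interval -0.76 to 0.72, limma adjusted p = 1.00), and 0.56 without both arrays numbered 2 (limma adjusted p = 0.273). The interaction was -1.08 (SE 0.47, unadjusted p = 0.0444, limma adjusted p = 0.453) and moved to -0.50 without those arrays (limma adjusted p = 0.607). The knockout effect was -0.42 with HGF and 0.67 without HGF (SE 0.33 each, limma adjusted p = 0.679 and 0.525), and 0.42 without HGF once both arrays numbered 2 were left out. Averaged over both conditions it was 0.13 (SE 0.24, limma adjusted p = 0.878). Without both arrays numbered 2 it was -0.08 with HGF and 0.17 averaged.

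**Figure D3:**
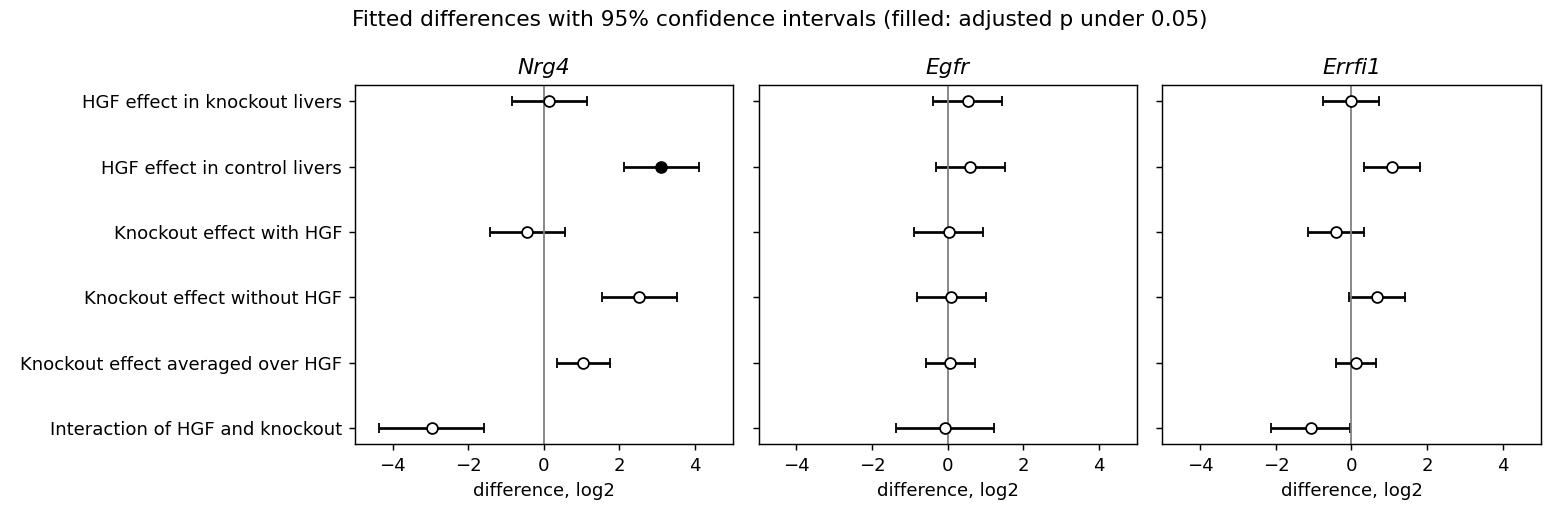
Fitted differences in log2(intensity + 1) for Nrg4, Egfr and Errfi1 in the 6 contrasts, with 95% confidence intervals; filled points passed a limma adjusted p under 0.05. Only the HGF effect on Nrg4 in controls is filled, at 3.11, while the Egfr intervals all include 0.

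Egfr and Errfi1 were high on both knockout arrays with an index near 1, and differed among the other 4. Knockout replicate 2 without HGF and knockout replicate 3 with HGF, at indices of 0.98 and 0.94, had Egfr at 9.88 and 10.30 and Errfi1 at 12.57 and 12.33. Knockout replicate 2 with HGF and replicate 3 without HGF, at 0.02 and 0.04, had Egfr at 8.77 and 8.52 and Errfi1 at 11.39 and 11.41. Knockout replicate 1 with HGF, at 0.32, had both genes high, at 9.95 and 12.43. Knockout replicate 1 without HGF differed between the genes, with Errfi1 at 12.23 and Egfr at 9.03 at an index of 0.12. Over the 12 arrays r between Egfr and Errfi1 was 0.761. The neutrophil sum was 10.34 on knockout replicate 2 without HGF, 10.33 on knockout replicate 3 with HGF and 8.23 on knockout replicate 1 with HGF, against 5.71 to 6.29 on the other 3 knockout arrays, and its part in the Egfr and Errfi1 values was not tested.

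**Figure D4:**
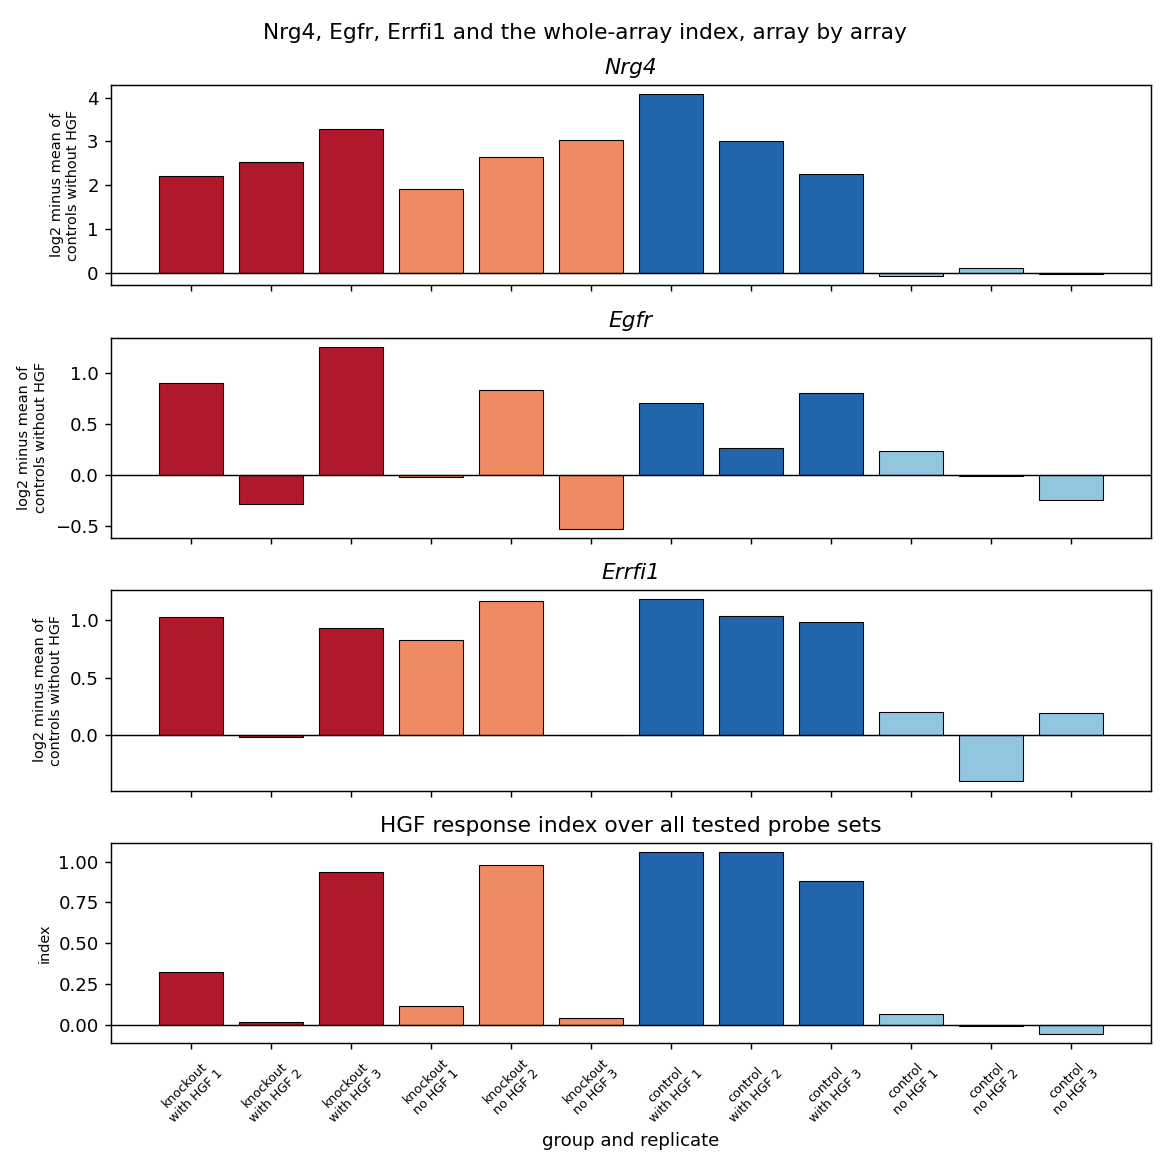
Log2 levels of Nrg4, Egfr and Errfi1 minus the mean of the controls without HGF, and the HGF response index over all tested probe sets, for each of the 12 arrays; colours mark groups. Nrg4 is up on all 6 knockout arrays, whereas Egfr and Errfi1 are low on knockout replicate 2 with HGF and replicate 3 without HGF, where the index is 0.02 and 0.04.

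The genes most like Errfi1 were Slc43a3 (r = 0.953), Tbc1d8 (0.938), the metallothionein gene Mt2 (0.933), Arhgef26 (0.926) and Cebpb (0.917), a transcription factor gene of the acute phase response. The genes most like Egfr were the LIM protein gene Pdlim1 (r = 0.933), Helb (0.930), Lurap1l (0.903), the amino acid transporter subunit gene Slc3a2 (0.901) and Eif4ebp3 (0.899). Neither list held another member.

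Other ErbB ligands and receptors did not pass the filter, and their values are not given here. Of Btc, Epgn, Nrg1, Nrg2, Nrg3 and Erbb4, 5 had a probe set and 0 of the 5 passed the filter. Erbb4, the main receptor for neuregulin 4, was among those below it.

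Of the genes that release ligands, 5 of 7 were tested and limma called 0 in each of the 6 contrasts. Their median HGF effect was -0.06 in knockouts and 0.69 in controls, against medians of 0.00 and -0.09 over all tested probe sets. The protease gene Adam17 had an effect of 0.69 (SE 0.29) in controls, and the iRhom genes Rhbdf2 and Rhbdf1, whose products carry Adam17 to the cell surface, had 2.49 (SE 1.02) and 1.34 (SE 0.35). The limma adjusted p of these 3 was 0.228, 0.216 and 0.0989. Adam10 had -0.25 (SE 0.21). Limma called Adam17 and Rhbdf1 higher in controls and 0 in knockouts once both knockout arrays numbered 2 were left out, and the median in knockouts was then 0.31. Over all 6683 tested probe sets that fit called 545 in controls and 278 in knockouts, against 27 and 0 with all arrays. Rhbdf1 lay close to background, at 2.79 to 3.16 in controls without HGF. It reached a log2 value of 4 only on control replicates 2 and 3 with HGF (4.84 and 4.40) and knockout replicate 2 without HGF (4.79). The last of these was left out of that fit.

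Of the adaptors and effector kinases, 24 of 32 had a probe set, 17 were tested and limma called 0 in each contrast. Their median HGF effect was -0.06 in knockouts and 0.03 in controls. The transcription factor genes Stat5a and Stat3 had effects of 1.90 (SE 0.69) and 1.14 (SE 0.41) in controls, and the adaptor genes Nck1 and Shc1 had 0.81 (SE 0.48) and -0.42 (SE 0.27), with limma adjusted p of 0.172 to 0.413 for these 4. With both knockout arrays numbered 2 left out, limma called Stat3 and Stat5a higher in controls, and Stat3 higher and Sos2 lower in knockouts, where the median was 0.01. That fit called 545 of all 6683 tested probe sets in controls and 278 in knockouts.

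Of the other negative regulators and sorting factors, 28 of 30 had a probe set, 14 were tested and limma called 0 in each contrast. Their median HGF effect was 0.08 in knockouts and 0.34 in controls. In controls the effect was 4.04 (SE 0.91) for Socs3, a cytokine feedback inhibitor, and 1.80 (SE 0.44) for the phosphatase gene Ptpn2. It was 1.70 (SE 0.43) for Lrig1, whose product promotes loss of ErbB receptors, and 1.61 (SE 0.41) for the phosphatase gene Ptpn12. The limma adjusted p of these 4 was 0.0801 to 0.0977. Lrig1 stood at 5.60, 5.60 and 6.63 in knockouts with HGF, at 5.54, 7.02 and 5.16 in knockouts without HGF, at 7.31, 7.21 and 6.96 in controls with HGF and at 5.48, 5.42 and 5.48 in controls without HGF. It was thus high on the knockout arrays with indices of 0.94 and 0.98, where Egfr was high too. On knockout replicate 1 with HGF, Egfr was high and Lrig1 near the controls without HGF. In the fit without both knockout arrays numbered 2, limma called 6 of the 14 higher and 1 lower with HGF in controls, and 1 higher, Socs3, in knockouts, where the median was 0.11. Of all 6683 tested probe sets it then called 357 higher and 188 lower in controls, and 142 higher and 136 lower in knockouts.

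Immediate early genes, transcribed within minutes to hours of growth factor signals, were the group with called members. All 20 had a probe set, 15 were tested, and limma called 6 higher in controls with HGF, against 0.299% of all tested probe sets called higher. The 6 were Junb (4.46, SE 0.69), Plk3 (3.88, SE 0.58), Atf3 (2.79, SE 0.47), Csrnp1 (2.31, SE 0.33), Phlda1 (2.29, SE 0.34) and Trib1 (1.36, SE 0.20), with limma adjusted p of 0.0338 to 0.0418. Trib1 reached a log2 value of 4 only in controls with HGF (4.10, 4.58 and 4.03). Atf3 reached it elsewhere only on knockout replicate 3 with HGF (4.572) and replicate 2 without HGF (4.525). Both were thus tested only because of the group in which they were then called higher. All 15 effects were positive in controls, with a median of 2.31, and the largest, Ier3 at 4.57 (SE 1.24), did not pass (limma adjusted p = 0.106). In knockouts limma called 0 of the 15, with a median of 0.15 and 10 positive. Without both knockout arrays numbered 2, limma called 13 in controls and 4 in knockouts, where the median was 0.79 with 15 positive. In that fit it called 545 and 278 of all 6683 tested probe sets, against 27 and 0 with all arrays. Both arrays numbered 2 were picked on an index that includes these genes, which favours calls and positive effects. Of the 6 calls in controls, 0 were left without the arrays with an added letter or with same-numbered arrays fitted as pairs. When any single control array was left out, 0 or 1 were left. The neutrophil sum was 9.65 to 11.50 in controls with HGF and 5.94 to 6.89 in controls without HGF, and its part in these values was not tested. The list was assembled with such results known, so its count is a description. Without HGF, 13 of the 15 had a positive knockout effect, with a median of 0.62 and 0 called. Leaving out both arrays numbered 2 gave a median of 0.17, with Junb and Plk3 called. Limma then called 180 of all 6683 tested probe sets in this contrast, against 4 with all arrays. Plk3, a stress-induced kinase gene, stood at 7.58, 5.39 and 7.23 in knockouts with HGF, 7.56, 7.67 and 6.33 in knockouts without HGF, 7.81, 7.28 and 7.99 in controls with HGF and 4.52, 3.14 and 3.79 in controls without HGF. Like Nrg4, Plk3 was higher on all 9 other arrays than on any control array without HGF, an order that 1.65% of tested probe sets shared. Of the 6 called genes, Junb, Csrnp1, Phlda1 and Trib1 had this order too, and Atf3 did not.

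**Figure D5:**
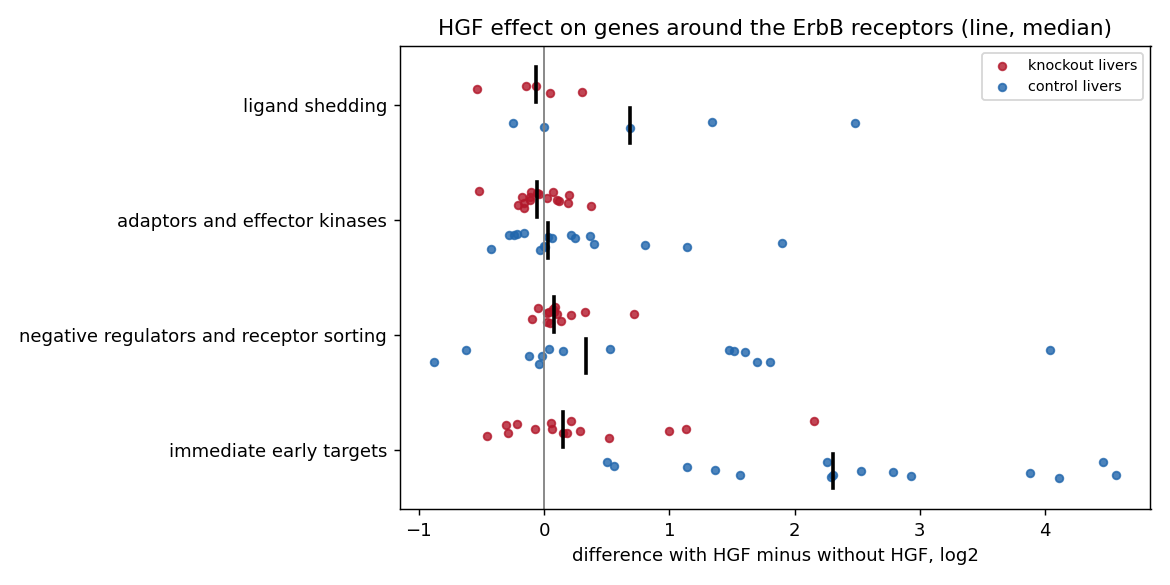
HGF effect (log2 difference, with HGF minus without) on the tested genes of 4 lists in knockout livers (red) and control livers (blue); vertical lines are medians. Medians for immediate early targets are 0.15 in knockouts and 2.31 in controls, and those of adaptors and effector kinases are -0.06 and 0.03.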

How the data were processed

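Biotin-labelled RNA of 12 mouse livers was hybridised to Affymetrix arrays, 1 per sample. The authors deposited 1 linear intensity per probe set and array, computed with GCRMA, per the submitters' processing notes. Its version and the array's build are not given in the sources used here. This method corrects background and normalizes between arrays, so a shift shared by most genes would not show. Groups and replicate numbers came from the sample titles. Of 16539 probe sets, 64 array controls were left out.

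Values were set to log2(intensity + 1), and probe sets at 4 or more on at least 3 arrays were tested. A mean per group was fitted over all 12 arrays with limma 3.58.1 in R 4.3.3 (8 residual degrees of freedom), with Benjamini-Hochberg adjustment over 6683 probe sets in each of 6 contrasts, two-sided, called under 0.05. The model was tested on simulated data. Intervals are 95%. With 3 arrays per group, the number of arrays limits precision. The p-values weigh each difference against the spread between arrays within the groups.

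Symbols came from the platform annotation, with 1 probe set per symbol; promoters came from RefSeq, which held 7 of the 10 members. The rule named all members, called list genes, up to 4 list genes with the largest HGF effect in controls, and the 5 genes with the highest Pearson's r to each tested member. Members, lists and alternatives were chosen with earlier results of these data known.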

Additional observations from a re-analysis of the deposited data

How the results depend on the processing

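The count of called probe sets depended strongly on the arrays and the model. For the HGF effect in controls, against 27, limma called 13 with no filter, 41 with a pseudocount of 16, 801 with the 2 control groups alone, 1279 with array weights, 545 without both knockout arrays numbered 2, and 0 with a replicate block or without the 2 arrays whose number carries a letter (control replicate 2 with HGF and knockout replicate 3 without HGF). For the HGF effect in knockouts, against 0, it called 278 without both arrays numbered 2, which were picked on an index over the same probe sets. For the knockout effect without HGF, against 4, it called 1 with a log2 floor of 6, with a replicate block or without the arrays with a letter, 150 with array weights and 180 without both arrays numbered 2. With HGF, against 1, the counts were 275 with array weights and 2 without both arrays numbered 2. For the averaged effect, against 1, they were 2 with a pseudocount of 16, 242 and 57, and for the interaction, against 0, they were 104 and 24 (array weights and without both arrays numbered 2). When each array was left out in turn, the counts ranged from 0 to 317 for HGF in controls (0 without control replicates 1, 2 or 3 without HGF or 2 or 3 with HGF, 3 without control replicate 1 with HGF, 58 and 121 without knockout replicates 2 and 3 with HGF, 317 without knockout replicate 2 without HGF), 1 to 9 for the knockout effect without HGF, 1 to 3 with HGF, 1 to 9 averaged and 0 to 1 for the interaction, and stayed at 0 for HGF in knockouts; 9 was reached in both cases without knockout replicate 2 without HGF.

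For Nrg4 in controls, 12 of 20 alternatives kept the call; it was lost with the replicate block (adjusted p = 0.152), without the arrays with a letter (adjusted p = 0.115) and in the 6 fits that left out a control array. Nrg4 could not be tested with a log2 floor of 6. The gap of Nrg4 was 1.82, and 0.91 with a pseudocount of 16, an alternative chosen after seeing the data. Over all tested probe sets, r between the deviations of same-numbered arrays was 0.050 to 0.177 in controls and -0.829 to 0.120 in knockouts. Between arrays of different numbers it was -0.182 to 0.067 in controls and -0.687 to 0.852 in knockouts. These values do not settle whether the numbers pair animals, and the main fit did not pair them.

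Differences near 0 changed sign. Egfr without HGF went to -0.018 with array weights and -0.27 without both arrays numbered 2, and to -0.27 to 0.41 with single arrays left out. With HGF it went to -0.13 without the arrays with a letter, and to -0.28 to 0.49 with single arrays left out, and averaged to -0.12 to 0.29. Its interaction went to 0.20 with array weights, 0.76 without both arrays numbered 2 and -0.38 to 0.39 with single arrays left out. The HGF effect on Errfi1 in knockouts went to 0.21, 0.56 and -0.35 to 0.31 under the same settings. With single arrays left out, Nrg4 in knockouts went to -0.15 to 0.40 and its knockout effect with HGF to -0.858 to 0.053. The causes were not tested.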
